A study of Homo sapiens with 14 samples.

Results

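The genes described here are 10 members of the cellular response to low oxygen, followed in cartilage pellets grown from human embryonic stem cells. They comprise HIF1A and EPAS1, the alpha subunits of the hypoxia-inducible factors, EGLN1 and EGLN3, the prolyl hydroxylases that sense oxygen, and 6 genes known as direct targets of these factors: VEGFA, ADM, NDUFA4L2, CA9, CA12 and NDRG1. They were taken by symbol from the 60587 gene identifiers in each deposited table, all 10 were found, and all 10 passed the filter on low counts that left 17838 genes for testing.

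RNA sequencing was done on whole pellets of WA01, also called H1, an established human embryonic stem cell line. All pellets were kept in chondrogenic medium, and libraries were made at day 21 (n = 4), day 30 (n = 5) and day 45 (n = 5) of culture. The treatment, the genotype and the line were shared by all groups, which by the labels differed in time alone, so there is no untreated, hypoxic or factor-deficient group, and the oxygen level of the cultures is not given in the labels. The library titled day 45 replicate 1 carries a treatment label of 30 days and was used by its title. Nothing in the labels tells if the replicates are separate differentiations, and the p-values therefore measure the spread of these libraries, which may be technical.

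A hypoxia-inducible factor is a pair of proteins, an oxygen-labile alpha subunit bound to a stable partner of the ARNT family. When oxygen is present, the EGLN enzymes hydroxylate prolines of the alpha subunit, the VHL ubiquitin ligase binds it, and it is degraded. When oxygen is scarce, the alpha subunit accumulates and binds a short DNA core near its targets, among them genes for glycolysis, vessel growth and pH control, and EGLN3 itself. Because this control acts on the protein, mRNA of HIF1A or EPAS1 is not a measure of the amount of factor. Cartilage has no vessels of its own, and HIF1A is known to be needed for the survival of growth plate chondrocytes, while EPAS1 has been studied in hypertrophic and osteoarthritic cartilage.

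The core bound by these factors is written ACGTG or GCGTG. It was looked for on both strands in the RefSeq promoter windows of the GRCh38.p14 build, which run from 250 bases before a gene's start to 50 after it. Windows were found for 7 of the 10 genes and not for VEGFA, NDUFA4L2 or NDRG1. HIF1A had 2 windows, 1 with a core and 1 without, so that 8 windows were searched. At least 1 core lay in a window of 6 of these 7 genes, or in 6 of the 8 windows, against 48.4% of 35116 single windows of the same length. ACGTG was found in 2 of the 7, EGLN1 and CA9, against 21.4% of all windows, and GCGTG in 4 of the 7, HIF1A, EPAS1, ADM and CA12, against 36.5%. A match of 5 letters is a description of the sequence and not a binding site. The 250 bases before the start are shown, in capitals where the core lies, for the genes with ACGTG, for ADM, which had the largest fitted rise of the 10, and for EGLN3, the gene without a match in its window. EGLN1 (chr1:231422288-231422537, minus strand) and CA9 (chr9:35673678-35673927, plus strand) hold the core close to the start, in CA9 on the opposite strand and so written CACGT. ADM lies at chr11:10304823-10305072 on the plus strand and EGLN3 at chr14:33951075-33951324 on the minus strand.
EGLN1: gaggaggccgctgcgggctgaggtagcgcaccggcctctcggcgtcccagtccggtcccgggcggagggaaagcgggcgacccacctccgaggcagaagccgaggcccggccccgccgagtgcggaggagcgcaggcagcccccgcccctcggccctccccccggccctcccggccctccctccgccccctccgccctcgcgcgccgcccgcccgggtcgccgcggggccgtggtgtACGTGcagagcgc
CA9: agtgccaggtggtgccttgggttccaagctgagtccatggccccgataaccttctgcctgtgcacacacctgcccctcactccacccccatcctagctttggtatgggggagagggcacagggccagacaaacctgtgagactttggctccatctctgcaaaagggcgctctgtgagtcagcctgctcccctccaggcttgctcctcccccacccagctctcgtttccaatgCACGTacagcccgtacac
ADM: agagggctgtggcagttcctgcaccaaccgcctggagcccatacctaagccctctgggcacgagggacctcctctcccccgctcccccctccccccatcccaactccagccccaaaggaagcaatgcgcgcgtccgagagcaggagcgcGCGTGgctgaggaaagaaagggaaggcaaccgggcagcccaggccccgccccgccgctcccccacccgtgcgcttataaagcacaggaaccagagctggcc
EGLN3: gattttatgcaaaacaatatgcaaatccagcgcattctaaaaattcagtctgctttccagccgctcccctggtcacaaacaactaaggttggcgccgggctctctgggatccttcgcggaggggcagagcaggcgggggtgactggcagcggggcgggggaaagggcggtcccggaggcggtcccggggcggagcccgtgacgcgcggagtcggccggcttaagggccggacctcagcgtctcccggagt
Read along the strand of the gene, the first base in capitals was 13 bases before the start in EGLN1, 18 in CA9 and 101 in ADM. The starts are those of RefSeq and lie inside the Ensembl gene spans given with the values.

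Total expected counts per library ranged from 18183776 to 33660704. Cartilage genes were abundant from the first time point: 10 cartilage markers were summed in CPM, the read count scaled to library size with TMM normalisation. At day 21 the sum lay between 36040 and 47390 CPM, at day 30 between 92750 and 221700 CPM, and by day 45 it had reached 193500 to 308300 CPM. Day 30 replicates 3 to 5 stood apart from the other libraries in how counts depended on transcript length, with Spearman correlations across genes between effective length and deviation from the mean of -0.428, -0.518 and -0.466, against -0.012 and -0.073 in day 30 replicates 1 and 2 and 0.119 to 0.255 elsewhere. The values of the 10 genes were also computed without these 3 libraries. For EPAS1, VEGFA, ADM, NDUFA4L2 and CA12 this changed no call between days: day 30 against day 21 gave 1.45, 2.33, 3.83, 4.91 and 2.71 on the log2 scale, and day 45 against day 30 gave 1.75, 0.48, 2.09, 0.35 and 1.22. For the other 5 genes, the calls that changed are given with each gene. In whole pellets, a gene's lower level from fewer cells of a type and from less RNA per cell cannot be told apart.

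From day 21 to day 45, every one of the 10 genes rose, from 1.26-fold for EGLN1 to 61.4-fold for ADM (a value that rests on few reads at day 21), and in each the 5 day 45 libraries all lay above the 4 day 21 libraries. Among all genes tested, 27.1% rose, 30.5% fell, 57.7% were called in either direction, and 25.3% had all later libraries higher. On the log2 scale the first interval held the larger rise for EGLN3, VEGFA, ADM, NDUFA4L2, CA9 and CA12. The second held it for HIF1A, EPAS1, EGLN1 and NDRG1. Between day 21 and day 30, 8 of the 10 rose and none fell, HIF1A and EGLN1 being the exceptions, against 27.2% of all genes rising, 27.1% falling and 54.4% called. Between day 30 and day 45, 7 rose and none fell, the exceptions being VEGFA, NDUFA4L2 and CA9, against 27.6% rising, 28.7% falling and 56.3% called. The median log2 fold change of the 10 genes was 1.94, 0.82 and 2.81 in the 3 comparisons (day 30 against 21, 45 against 30, 45 against 21), beside 0.02, -0.04 and -0.05 over all genes tested. These comparisons share libraries and are not independent of each other.

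**Figure D1:**
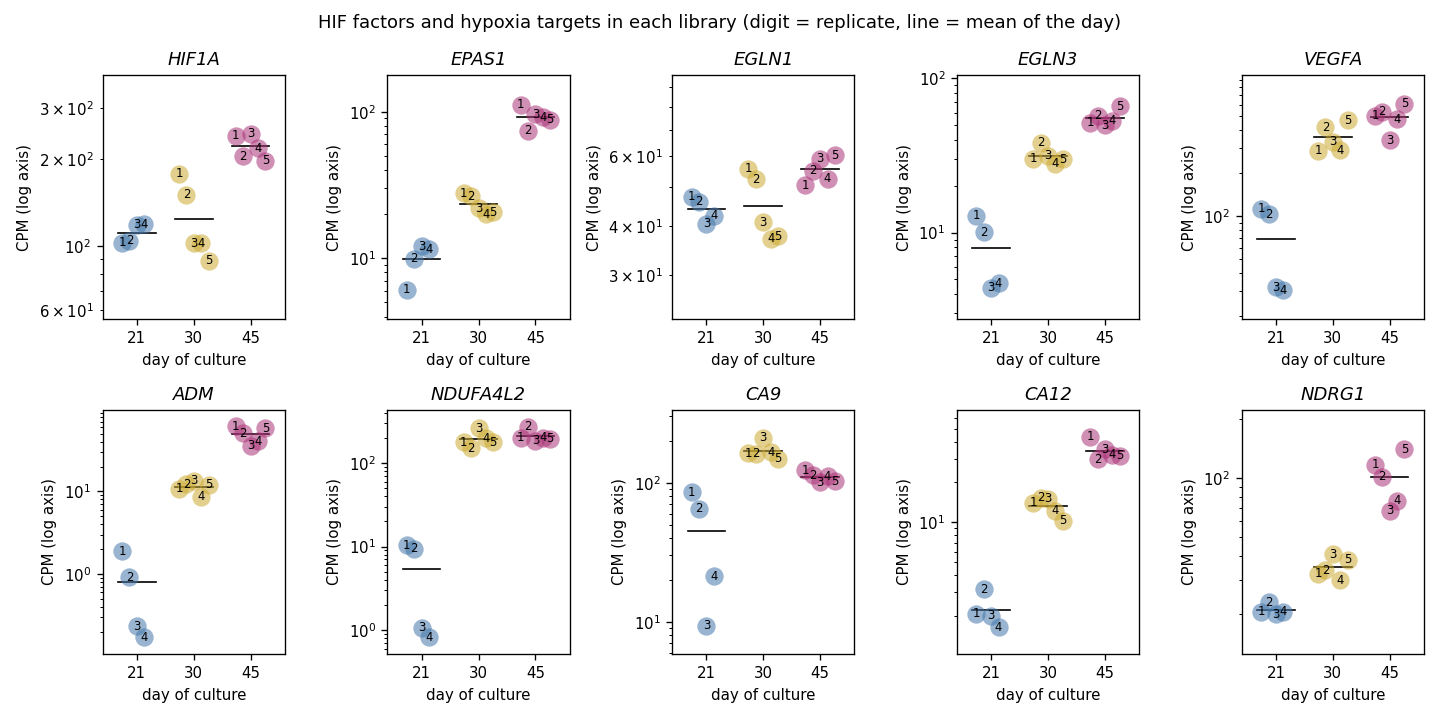
CPM of each of the 10 genes (log axis, 1 panel per gene) by day of culture, each point 1 library with its replicate number and each line the mean of the day. NDUFA4L2 rises from a mean of 5.40 to 193 and 211 CPM, and at day 21 the points of replicates 1 and 2 lie above those of replicates 3 and 4 in the panels of EGLN3, VEGFA, ADM, NDUFA4L2 and CA9.

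HIF1A (ENSG00000100644, GRCh38 14:61695513-61748259, plus strand) encodes the alpha subunit found in nearly all cells. Its level was 103, 104, 118 and 119 CPM in day 21 replicates 1 to 4, 178, 150.4, 102, 102 and 88.9 CPM in day 30 replicates 1 to 5 and 240.5, 204, 245, 218 and 198 CPM in day 45 replicates 1 to 5. Day 45 stood above both earlier days without overlap, and day 30 split, with replicates 1 and 2 above every day 21 library and replicates 3 to 5 below the lowest of them. The rise was 0.83 ± 0.16 on the log2 scale (SE) from day 30 to day 45 (edgeR adjusted p = 0.000273) and 0.99 ± 0.17 from day 21 (adjusted p = 7.27e-05), and the first interval gave 0.16 ± 0.17 (adjusted p = 0.42). Without day 30 replicates 3 to 5 the first interval was called, at 0.56 (adjusted p = 0.000797), and with an offset for transcript length it was 0.29 (adjusted p = 0.102). With day 45 replicate 1 placed at day 30 the rise from day 30 to day 45 was 0.59 and was not called (adjusted p = 0.0509).

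EPAS1 (ENSG00000116016, 2:46293667-46386703, plus strand) encodes the other main alpha subunit, whose expression is more restricted to certain cell types. It was measured at 6.11, 9.90, 12.03 and 11.5 CPM at day 21, 27.8, 26.5, 21.9, 19.9 and 20.6 CPM at day 30 and 112, 73.9, 95.9, 91.4 and 88.3 CPM at day 45, in the order of replicates. The 3 days did not overlap, and day 21 replicate 1 was the lowest library of all. EPAS1 rose by 1.24 ± 0.17 in the first interval (adjusted p = 1.55e-05), by 1.98 ± 0.16 in the second (adjusted p = 6.98e-08) and by 3.22 ± 0.18 over both (adjusted p = 2.12e-10), a 9.31-fold change. With day 45 replicate 1 placed at day 30 the steps were 1.95 and 1.2 (adjusted p = 0.00321 and 0.0382).

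Because TPM (the share of transcripts, corrected for length) allows genes to be compared, the 2 factors were set beside each other within each library. EPAS1 was at 0.0552, 0.0513, 0.0597 and 0.0680 of the TPM of HIF1A in the 4 day 21 libraries, at 0.123, 0.164, 0.154, 0.169 and 0.233 in the 5 day 30 libraries and at 0.268, 0.248, 0.286, 0.311 and 0.246 in the 5 day 45 libraries. HIF1A mRNA was thus the more abundant of the pair in every library, and the gap narrowed with time. The log2 ratio of TPM + 1 was -3.86 ± 0.13 (SD, n = 4), -2.48 ± 0.34 (n = 5) and -1.86 ± 0.14 (n = 5). It differed by 1.38 between day 21 and day 30 and by 2.0 between day 21 and day 45, without overlap (exact two-sided permutation test, p = 0.00794 in both, the smallest these groups allow, adjusted p = 0.0136 over the 12 ratio tests made here). Between day 30 and day 45 the difference was 0.63 (exact p = 0.0159, adjusted p = 0.0212), and on this scale day 30 replicate 5 (-1.987) lay just above the lowest day 45 library (-1.989).

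EGLN1 (ENSG00000135766, 1:231363751-231425044, minus strand) encodes PHD2, regarded as the main hydroxylase setting HIF1A levels in normal oxygen. It was nearly flat, at 47.4, 45.97, 40.5 and 42.4 CPM at day 21, 55.8, 52.5, 40.8, 37 and 37.6 CPM at day 30 and 50.7, 55.2, 59.05, 52.6 and 60.3 CPM at day 45. The day 45 libraries lay above all day 21 libraries but overlapped day 30, where replicates 1 and 2 were again the highest. Its rise was 0.34 ± 0.12 from day 21 to day 45 (adjusted p = 0.0241) and 0.31 ± 0.11 from day 30 (adjusted p = 0.0268), and the first interval gave 0.02 ± 0.12 (adjusted p = 0.885). These calls were near the threshold: the rise from day 21 was not called without day 21 replicate 3 (adjusted p = 0.072) or 4 (0.0542) or day 45 replicate 3 (0.0503) or 5 (0.054), and the rise from day 30 was not called without day 30 replicate 3 (0.0622), 4 (0.0765) or 5 (0.0573) or day 45 replicate 3 (0.0575) or 5 (0.0629), nor with the days compared fitted alone (0.0716) or day 45 replicate 1 placed at day 30 (0.0564). Without day 30 replicates 3 to 5 together, the value for day 45 against day 30 was 0.02 (adjusted p = 0.859) and day 30 against day 21 was called, at 0.29 (adjusted p = 0.0246).

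EGLN3 (ENSG00000129521, 14:33924231-34462774, minus strand) encodes PHD3, the hydroxylase known for strong induction by the factors it restrains. Its levels were 12.9, 10.1, 4.37 and 4.67 CPM at day 21, 30.1, 38.3, 31.5, 27.97 and 29.9 CPM at day 30 and 51.5, 57.2, 49.6, 52.9 and 65.9 CPM at day 45. The 3 days did not overlap, and at day 21 replicates 1 and 2 were above replicates 3 and 4. EGLN3 rose by 1.98 ± 0.25 (adjusted p = 7.13e-06), then by 0.81 ± 0.22 (adjusted p = 0.00533), and by 2.79 ± 0.26 in all (adjusted p = 1.16e-07). Without day 30 replicates 3 to 5 the second step was 0.69 and was not called (adjusted p = 0.168).

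In TPM, EGLN3 was 0.441, 0.340, 0.146 and 0.163 times EGLN1 in the day 21 libraries, 0.840, 1.04, 1.19, 1.07 and 1.26 times EGLN1 at day 30 and 1.46, 1.65, 1.22, 1.201 and 1.69 times EGLN1 at day 45. The inducible enzyme was therefore the lower of the pair in all day 21 libraries and the higher in all day 45 libraries, with 1 of the 5 day 30 libraries below equality. The log2 ratio of TPM + 1 was -1.88 ± 0.68 (SD, n = 4), 0.09 ± 0.22 (n = 5) and 0.50 ± 0.23 (n = 5). Its difference was 1.97 from day 21 to day 30 and 2.38 from day 21 to day 45 (exact permutation p = 0.00794, adjusted p = 0.0136 for both), and 0.41 from day 30 to day 45 (exact p = 0.0317, adjusted p = 0.0381). The last call was lost without any 1 of day 30 replicates 1 to 4 or day 45 replicates 1, 2 and 5, with values of 0.32 to 0.44 (exact permutation test, adjusted p = 0.0571 to 0.0762).

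VEGFA (ENSG00000112715, 6:43770184-43786487, plus strand) encodes the secreted growth factor that draws vessels into cartilage as it is replaced by bone. It stood at 113, 103, 31.8 and 30.2 CPM in the day 21 libraries, 286, 417, 332, 289 and 466 CPM at day 30 and 504, 538, 339, 477 and 608 CPM at day 45. All later libraries exceeded all day 21 libraries, within which replicates 1 and 2 were more than 3 times replicates 3 and 4, and day 30 and day 45 overlapped. The rise was 2.36 ± 0.37 by day 30 (adjusted p = 8.27e-05) and 2.83 ± 0.38 by day 45 (adjusted p = 1.3e-05). From day 30 to day 45 the value was 0.46 ± 0.33 and was not called (adjusted p = 0.239), although it was when only these days were fitted (0.43, adjusted p = 0.0474).

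ADM (ENSG00000148926, 11:10304680-10307397, plus strand) encodes adrenomedullin, a secreted peptide known to widen vessels. Its libraries held 1.89, 0.912, 0.233 and 0.170 CPM at day 21, 10.8, 12.2, 13.5, 8.58 and 12 CPM at day 30 and 61.4, 50.6, 35.6, 40.8 and 58.1 CPM at day 45. At day 21 these were expected counts of 68, 36, 9 and 6, so the base of the comparison rests on few reads, and no other day overlapped it. ADM rose by 3.83 ± 0.42 to day 30 (adjusted p = 2.21e-06) and by a further 2.11 ± 0.31 to day 45 (adjusted p = 4.54e-05). The change over the whole course was 5.94 ± 0.43 (adjusted p = 1.38e-08). Leaving out day 21 replicate 1 moved the first step to 4.66 and the whole course to 6.77, and with day 45 replicate 1 placed at day 30 the second step was 1.22 and was not called (adjusted p = 0.0856).

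The receptors and partners of these 2 secreted products moved in both directions. From day 21 to day 45, 27.1% of all genes tested rose and 30.5% fell. Of 8 other VEGF family and receptor genes tested (9 listed), 4 rose and 2 fell from day 21 to day 45: the co-receptor NRP1 rose by 3.06 ± 0.30 and FLT1, a high-affinity receptor often described as a decoy, by 1.65 ± 0.21, while KDR, the main signalling receptor, fell by 1.59 ± 0.19 and FLT4, a receptor for VEGFC, fell by 2.03 ± 0.18. KDR reached 9.45 ± 1.41 CPM (SD, n = 5) at day 45. Of 5 adrenomedullin receptor genes, 4 were tested, 1 rose and 1 fell. CALCRL, which carries the ligand-binding chain, was between 0.0393 and 0.645 CPM in all libraries and was not called (0.03 ± 0.67). Its partner RAMP2 fell by 1.59 ± 0.23 to 3.15 ± 0.77 CPM, RAMP3 was too low to be tested, RAMP1 was not called (0.38 ± 0.21, called at 0.61 without day 21 replicate 4), and ACKR3, described as a scavenging receptor, rose by 1.28 ± 0.17.

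NDUFA4L2 (ENSG00000185633, 12:57234903-57240715, minus strand) encodes a paralog of NDUFA4, a subunit of cytochrome oxidase, and is known to lower mitochondrial activity when oxygen is low. Its levels were 10.3, 9.40, 1.06 and 0.822 CPM at day 21, 177, 151, 261, 197 and 177 CPM at day 30 and 202, 272, 185, 199.5 and 196 CPM at day 45. Day 21 lay far below the rest, and within it replicates 1 and 2 were several-fold above replicates 3 and 4, while day 30 and day 45 overlapped. The fitted rise was 5.15 ± 0.64 by day 30 (adjusted p = 2.1e-05) and 5.28 ± 0.65 by day 45 (adjusted p = 1.22e-05), with 0.13 ± 0.48 between the later days (adjusted p = 0.833). The kit does not mark strand, and 33 of the gene's 2806 exon bases are shared with SHMT2 on the opposite strand, whose level was 132 ± 20.8, 284 ± 26.2 and 259 ± 20.6 CPM at the 3 days.

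NDUFA4 itself moved far less. Its mean was 59.5 ± 5.59 CPM (SD, n = 4) at day 21, 91.7 ± 33 (n = 5) at day 30 and 68.6 ± 10.2 (n = 5) at day 45. It rose by 0.63 ± 0.20 to day 30 (adjusted p = 0.0155), but by 0.02 without day 30 replicates 3 to 5 (adjusted p = 0.928), and its change over the whole course was not called (0.21 ± 0.20, adjusted p = 0.399). NDUFA4L2 was therefore at 0.250, 0.284, 0.0365 and 0.0191 of the TPM of NDUFA4 in the day 21 libraries, at 6.07, 3.86, 4.49, 1.79 and 2.44 times it at day 30 and at 5.98, 7.25, 3.93, 3.49 and 5.46 times it at day 45. The order of the pair was reversed in every later library. The log2 ratio of TPM + 1 changed by 5.03 from day 21 to day 30 and by 5.59 to day 45 (exact permutation p = 0.00794, adjusted p = 0.0136 for both), and by 0.56 between the later days (exact p = 0.183, adjusted p = 0.199), or 0.058 without day 30 replicates 3 to 5 (exact permutation test, adjusted p = 0.933). COX4I1, the common form of another subunit of the oxidase, was not called over the course either (0.30 ± 0.14, adjusted p = 0.0841), although it was with those days fitted alone (0.31, adjusted p = 0.00695) or without day 30 replicates 3 to 5 (0.28, adjusted p = 0.00759), and COX4I2, its hypoxia-linked form, was too low to be tested.

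CA9 and CA12 encode carbonic anhydrases that sit in the cell membrane with the active site outside, where they help to export acid. CA9 (ENSG00000107159, 9:35673856-35681159, plus strand) was at 85.4, 64.8, 9.34 and 21.3 CPM at day 21, 163, 161, 209.7, 166 and 149 CPM at day 30 and 123, 113, 101, 112 and 103 CPM at day 45. It was the only one of the 10 genes with all day 45 libraries below all day 30 libraries, a pattern seen in 18.6% of all genes tested. The rise was 1.91 ± 0.46 to day 30 (adjusted p = 0.00336) and 1.28 ± 0.45 to day 45 (adjusted p = 0.0258). Between the later days the value was -0.62 ± 0.41 and was not called (adjusted p = 0.215).

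The shared fit carries the spread of CA9 at day 21 into that last test, and its calls depended on which libraries were in the fit. With only days 30 and 45 fitted CA9 fell by 0.65 (adjusted p = 0.000139), and without day 21 replicate 3 it fell by 0.62 (adjusted p = 0.0453). The rise from day 21 to day 45 was not called without day 21 replicate 4 (1.06, adjusted p = 0.0711), without day 30 replicates 3 to 5 (1.27, adjusted p = 0.0769), with those days fitted alone (1.29, adjusted p = 0.0899) or with no filter on low counts (1.27, adjusted p = 0.0726), and the rise to day 30 was not called without day 30 replicates 3 to 5 (1.83, adjusted p = 0.0566). Of the 1670 exon bases of CA9, 643 are shared with ARHGEF39 on the opposite strand, which had 7.66, 6.63 and 4.54 CPM at the 3 days.

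CA12 (ENSG00000074410, 15:63321378-63382161, minus strand) started lower and kept rising. Its libraries were at 2.06, 3.14, 1.99 and 1.64 CPM at day 21, 14.01, 15.3, 15, 12.2 and 10.2 CPM at day 30 and 43.6, 29.6, 35.3, 32.2 and 31.6 CPM at day 45. The days did not overlap, and at day 21 replicates 1 and 2 lay above replicates 3 and 4 by a smaller margin than in CA9. CA12 rose by 2.59 ± 0.19 (adjusted p = 8.64e-09), then by 1.37 ± 0.15 (adjusted p = 1.78e-06), and by 3.96 ± 0.19 in all (adjusted p = 2.51e-11), 15.5-fold. With day 45 replicate 1 placed at day 30 the second step was 0.80 and was not called (adjusted p = 0.062).

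Per length, CA9 exceeded CA12 in every library, by 119, 64.5, 14.9 and 35.7 times in the day 21 libraries, 31.6, 30.01, 47.5, 64.97 and 52.7 times at day 30 and 7.12, 9.72, 7.27, 8.90 and 8.15 times at day 45. All day 45 ratios were below all others. On the log2 scale of TPM + 1 the ratio fell by 2.21 from day 30 to day 45 (exact permutation p = 0.00794, adjusted p = 0.0136) and by 1.68 from day 21 (exact p = 0.0159, adjusted p = 0.0212, with the pseudocount closing the gap to day 21 replicate 3), and the first interval gave 0.53 (exact p = 0.421). The call from day 21 was lost without any 1 of day 45 replicates 1, 3, 4 and 5 (-1.71 to -1.63, exact permutation test, adjusted p = 0.0686).

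Of 13 other carbonic anhydrases, 7 passed the filter on low counts. Of these, 2 rose and 5 fell from day 21 to day 45, with a median of -1.91. Over the same span 27.1% of all genes tested rose and 30.5% fell, with a median of -0.05. CA2, the abundant cytosolic form, rose by 2.72 ± 0.37 to 15.6 ± 5.07 CPM, and CA5B, a mitochondrial form, by 0.52 ± 0.12 (both outside the rule for naming genes and given to complete the list). CA3 fell by 2.75 ± 0.28, CA14 fell by 2.72 ± 0.33, CA11 fell by 1.91 ± 0.14, CA13 fell by 1.06 ± 0.25, and CA10, near 0.494 CPM at day 21, was at 0 in all day 45 libraries. Of 7 acid and bicarbonate transporters, 5 rose and 1 fell: the lactate exporters SLC16A3 and SLC16A1 rose by 1.91 ± 0.20 and 1.71 ± 0.18, the bicarbonate importer SLC4A4 by 1.87 ± 0.25, and the anion exchanger SLC4A2 fell by 0.49 ± 0.09.

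NDRG1 (ENSG00000104419, 8:133237171-133302022, minus strand) encodes a cytoplasmic protein induced by hypoxia and other stress in many cells. It was at 20.6, 23.1, 19.99 and 20.7 CPM at day 21, 32.3, 33.6, 40.8, 29.9 and 38.2 CPM at day 30 and 117, 101, 68.1, 76.7 and 140.3 CPM at day 45. In CPM day 21 was tight, no days overlapped, and at day 45 replicate 5 was the highest and replicate 3 the lowest. In TPM day 21 (18.81 to 23.35) and day 30 (15.87 to 22.56) overlapped. NDRG1 rose by 0.73 ± 0.17 (adjusted p = 0.00181) and then by 1.53 ± 0.16 (adjusted p = 1.13e-06). Over the whole course the rise was 2.25 ± 0.18 (adjusted p = 1.22e-08). The first step was 0.64 and was not called without day 30 replicates 3 to 5 (adjusted p = 0.0505). On log2(TPM + 1) it was 0.01 and was not called (limma adjusted p = 0.98).

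The other NDRG genes did not share this course. Of the 3 other genes, 1 was called over the whole course, higher, as were 27.1% of all genes tested. NDRG2 went from 159.7 ± 6.10 CPM at day 21 to 295 ± 27.5 at day 30 and 168 ± 24.5 at day 45, rising by 0.89 ± 0.11 (adjusted p = 4.55e-06) and then falling, with -0.81 ± 0.10 (adjusted p = 6.71e-06). NDRG4 had the same signs, with 0.84 ± 0.11 and -0.46 ± 0.10 (adjusted p = 8.61e-06 and 0.00133), and ended 0.38 ± 0.11 above day 21 (adjusted p = 0.00785). NDRG3 gave -0.43 ± 0.10 and then 0.30 ± 0.10 (adjusted p = 0.00186 and 0.0161). On log2(TPM + 1) the changes over the whole course were -0.41 for NDRG2, 0.05 for NDRG4 and -0.54 for NDRG3 (limma adjusted p = 0.00563, 0.782 and 0.00055).

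**Figure D2:**
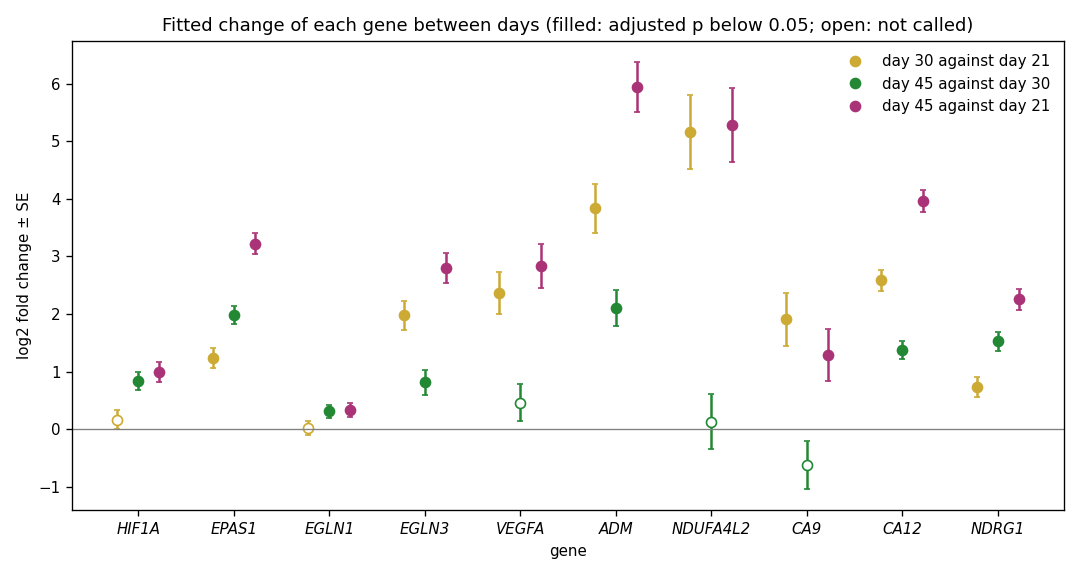
Log2 fold change with its SE (vertical axis) of each of the 10 genes in 3 comparisons of days, filled where the edgeR adjusted p was below 0.05 and open otherwise. The change from day 30 to day 45 is near 0 and open for NDUFA4L2 (0.13) and below 0 and open for CA9 (-0.62), while it exceeds that of the first interval for HIF1A, EPAS1, EGLN1 and NDRG1.

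Whether the later interval differed from the earlier one was tested directly, as the change from day 30 to day 45 minus that from day 21 to day 30. The difference was called for 8 of the 10 genes, against 52.7% of all genes tested. It was lower for 6 (27.5% of all genes): NDUFA4L2 at -5.02 ± 0.85 (adjusted p = 0.000321), CA9 at -2.53 ± 0.71 (0.00878), VEGFA at -1.90 ± 0.56 (0.0105), ADM at -1.72 ± 0.59 (0.0239), CA12 at -1.21 ± 0.28 (0.00152) and EGLN3 at -1.17 ± 0.39 (0.0192). It was higher for 2 (25.3% of all genes), NDRG1 at 0.80 ± 0.28 (0.0261) and EPAS1 at 0.74 ± 0.28 (0.0358). HIF1A at 0.67 ± 0.28 (0.0522) and EGLN1 at 0.29 ± 0.20 (0.24) were not called.

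Both intervals share the day 30 libraries, so this contrast leans on them most. Without day 30 replicates 3 to 5, 2 of the 10 were called, NDUFA4L2 at -4.56 (adjusted p = 0.0198) and CA12 at -1.49 (adjusted p = 0.00505). Of the 18509 genes tested in that fit, 2848 were called higher and 2811 lower. With these 3 fewer libraries, 5 of the 6 others kept values near those above or larger, CA9 at -2.40, VEGFA at -1.85, ADM at -1.74, EGLN3 at -1.40 and NDRG1 at 0.96, without passing the threshold (adjusted p = 0.156, 0.173, 0.186, 0.134 and 0.128), and EPAS1 gave 0.30 (adjusted p = 0.603). The higher value for EPAS1 was the least stable: it was not called without any 1 of day 21 replicates 3 and 4, day 30 replicates 3, 4 and 5 or day 45 replicates 1 and 3 (adjusted p = 0.051 to 0.0973), nor with a transcript length offset (0.27, adjusted p = 0.396) or a replicate block (0.71, adjusted p = 0.0871), and with day 45 replicate 1 placed at day 30 it was -0.75. NDRG1 was not called without day 30 replicate 1, 2 or 4, at 0.74, 0.77 and 0.69 (adjusted p = 0.0547, 0.0507 and 0.0748). EGLN3 was not called without day 30 replicate 2, at -1.02 (adjusted p = 0.0575). ADM was not called without day 30 replicate 3 or 5, at -1.59 and -1.67 (adjusted p = 0.0534 and 0.051), with DESeq2, at -1.73 (0.0807), or with the length offset, at -1.23 (0.128), and it was -2.54 without day 21 replicate 1 (adjusted p = 0.000458). With no filter on low counts EGLN3, VEGFA and ADM were at -1.07, -1.81 and -1.63 and not called (adjusted p = 0.0944, 0.0527 and 0.104). HIF1A was called with DESeq2 (0.67, adjusted p = 0.0424), with no filter (0.76, adjusted p = 0.0442) and without day 30 replicate 1 (0.997, adjusted p = 0.00203) or 2 (0.82, adjusted p = 0.027), and EGLN1 without day 30 replicate 1 (0.47, adjusted p = 0.0456).

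**Figure D3:**
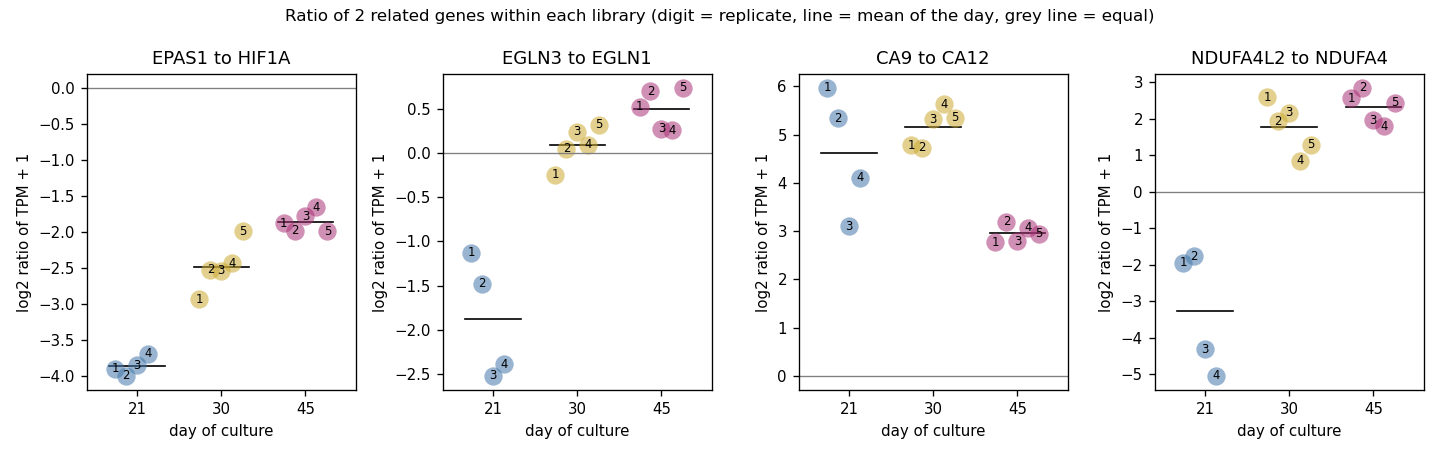
Log2 ratio of TPM + 1 of 2 related genes within each library (vertical axis) by day of culture, each point 1 library with its replicate number, black lines the means and the grey line equality. EPAS1 stays below HIF1A in all 14 libraries (means -3.86, -2.48 and -1.86), NDUFA4L2 passes from below to above NDUFA4, and the CA9 to CA12 ratio is lowest at day 45 (mean 2.95).

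The day 21 libraries differed among themselves in a way that ran through 5 of the 10 genes. EGLN3, VEGFA, ADM, NDUFA4L2 and CA9 were each higher in both replicates 1 and 2 than in both replicates 3 and 4, whereas HIF1A and EPAS1 were lower in replicates 1 and 2, NDRG1 did not separate them, and CA12 and EGLN1 did so by small margins. BNIP3, a mitophagy receptor induced by hypoxia, had 70.2, 57.2, 22.3 and 27.8 CPM in the same 4 libraries, and DDIT4, a stress-induced inhibitor of mTOR, 109, 91.4, 53.3 and 59.1. Summed over 22 genes of glucose uptake and glycolysis the libraries had 8606, 8164, 5578 and 7131 CPM, and over 21 other hypoxia-induced genes 1594, 1533, 1271 and 1234. Beside these, the 14 partners and regulators of the factors summed to 912, 897, 894 and 913 CPM, the cartilage markers to 47390, 39070, 36040 and 43980, and 8 immediate early genes, which respond within minutes to stress, to 176, 170.5, 169 and 179.6. Total counts were between 28732688 and 30287388. These 4 libraries share 1 label, no other label divides them, and the origin of the split was not tested. The SE of NDUFA4L2, CA9, ADM and VEGFA, 0.37 to 0.65 in the comparisons with day 21, was larger than that of the other 6 genes.

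Ranked by mean TPM, a per-length level, the 10 genes changed places. At day 21 HIF1A led at 87.9 ± 8.21 TPM (SD, n = 4), with CA9 at 70.9 ± 54.7, VEGFA at 66.8 ± 40.5 and EGLN1 at 30.9 ± 1.55, and each of these overlapped its neighbour. EGLN1 was clear of NDRG1 at 20.1 ± 2.17, but CA9 was not, since its replicate 3 was at 17.77 TPM. NDUFA4L2, EGLN3, EPAS1, ADM and CA12 followed with overlapping ranges from 11.6 down to 1.2. At day 30 NDUFA4L2 (296 ± 48.1, n = 5), VEGFA (231 ± 65.6) and CA9 (208 ± 26.1) overlapped at the top, clear of HIF1A at 64.3 ± 28.8, which was itself clear of the genes from EGLN3 (24.8 ± 5.01) down to EPAS1 (10.2 ± 2.89), and CA12 stood apart at 5.03 ± 1.80. At day 45 NDUFA4L2 (334 ± 62.4) and VEGFA (320 ± 64.9) were above the overlapping pair of HIF1A (133 ± 18.9) and CA9 (126 ± 10.1). ADM (76.6 ± 13.7), NDRG1 (72.2 ± 23.6), EGLN3 (42.8 ± 7.11), EPAS1 (35.9 ± 5.43) and EGLN1 (30.0 ± 5.36) formed an overlapping run below them, and CA12 was last at 15.4 ± 2.03.

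The choice of unit moves values across the genes, by amounts that differ from gene to gene. On log2(TPM + 1) the median of all genes tested was -0.35 for day 30 against day 21 and -0.34 for day 45 against day 21, with 16.5% and 19.8% of calls higher, against 50.1% and 47% of calls on TMM-scaled counts. For day 45 against day 30 it was 0.01, with 53.8% of calls higher against 49%. For the difference between the intervals it was 0.37, with 76% of calls higher against 47.9%. On that scale HIF1A and EGLN1 fell from day 21 to day 30, by 0.55 (limma adjusted p = 0.0477) and 0.42 (0.0362), NDRG1 gave 0.01 (0.98), and EGLN1 gave -0.06 from day 21 to day 45 (0.781). The rises of the other 9 genes over the whole course kept their direction and call, with values moved by more than 1.5 times for EPAS1 (2.58), ADM (5.02) and CA12 (2.91). A pseudocount of 1 TPM understates the change of low genes such as ADM and CA12. For the difference between intervals, CA12 gave 0.08 (adjusted p = 0.851), EGLN3 and ADM were not called (0.133 and 0.48), and HIF1A (1.68, 0.00154) and EGLN1 (0.78, 0.0237) were called higher.

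The genes of proteins that pair with, modify or destroy the alpha subunits moved in both directions. Of 14 such genes, 6 rose and 6 fell from day 21 to day 30. From day 30 to day 45, 6 rose and 4 fell, and over the whole course 4 rose and 5 fell. The medians were -0.21, -0.08 and -0.03. In the same comparisons 27.2%, 27.6% and 27.1% of all genes tested rose. The shares falling were 27.1%, 28.7% and 30.5%, so the whole-course counts were near the shares of all genes. ARNT, the constitutive partner, was not called over the whole course (0.12 ± 0.09), but its level dipped in between. No day 30 library exceeded 48.7 CPM for ARNT, whereas the lowest day 21 library had 51.8 and the lowest day 45 library 57.4. ARNT2, a relative of ARNT, fell over the whole course by 1.95 ± 0.11, from 43.4 ± 3.74 to 11.2 ± 1.54 CPM. CITED2, which competes with the factors for their coactivators, rose by 1.22 ± 0.11, and P4HTM, a membrane-bound prolyl hydroxylase, by 1.07 ± 0.13, while EGLN2, the remaining EGLN hydroxylase, fell by 0.69 ± 0.09. HIF3A, a further alpha subunit with isoforms that restrain the others, was at 204 ± 27.8 CPM at day 21, 308 ± 17.6 at day 30 and 193 ± 17.4 at day 45. It rose by 0.60 ± 0.11 (adjusted p = 0.000145) and then fell by 0.67 ± 0.10 (adjusted p = 2.69e-05). On log2(TPM + 1) neither step of HIF3A was called, at -0.08 and -0.32 (limma adjusted p = 0.704 and 0.0993). Over the whole course HIF3A was called lower on that scale, at -0.40 (limma adjusted p = 0.048), but not in the main fit, at -0.08 (edgeR adjusted p = 0.553).

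The wider set of target genes rose with the 10. Of 21 other hypoxia-induced genes, 19 rose and none fell by day 30, 12 rose and 3 fell from day 30 to day 45, and 18 rose and none fell over the whole course, with medians of 1.32, 0.49 and 1.89. MXI1, an antagonist of MYC, rose by 3.14 ± 0.16, VLDLR, a lipoprotein receptor, by 2.72 ± 0.17, P4HA2, a collagen prolyl hydroxylase, by 2.39 ± 0.12 and HILPDA, a lipid droplet protein, by 2.0 ± 0.14. Of 22 genes of glucose uptake and glycolysis, 19 rose and 1 fell by day 30, 10 rose and 1 fell from day 30 to day 45, and 20 rose and 1 fell over the course, with medians of 0.87, 0.28 and 1.33. The aldolases ALDOC and ALDOA rose by 2.42 ± 0.19 and 1.70 ± 0.15, LDHA, which makes lactate, by 1.61 ± 0.14, and PGK1 by 1.47 ± 0.12. Of all genes tested, 27.2%, 27.6% and 27.1% rose by day 30, from day 30 to day 45 and over the course. The shares falling were 27.1%, 28.7% and 30.5%. On log2(TPM + 1) the counts by day 30 were 12 rising of 21, and 11 rising and 2 falling of 22. On that scale 1788 of all 17838 genes rose by day 30 and 9019 fell. The lactate exporter SLC16A3 is on both this list and that of transporters. With day 45 replicate 1 placed at day 30, the counts from day 30 to day 45 were 7 rising and 2 falling of 21, and 4 rising of 22. With that placement 3036 of all 17838 genes rose over that interval and 3430 fell. Without day 30 replicates 3 to 5 the glycolysis count for that interval was 7 rising of 22. Of the 18509 genes tested in that fit, 3628 rose and 3564 fell.

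**Figure D4:**
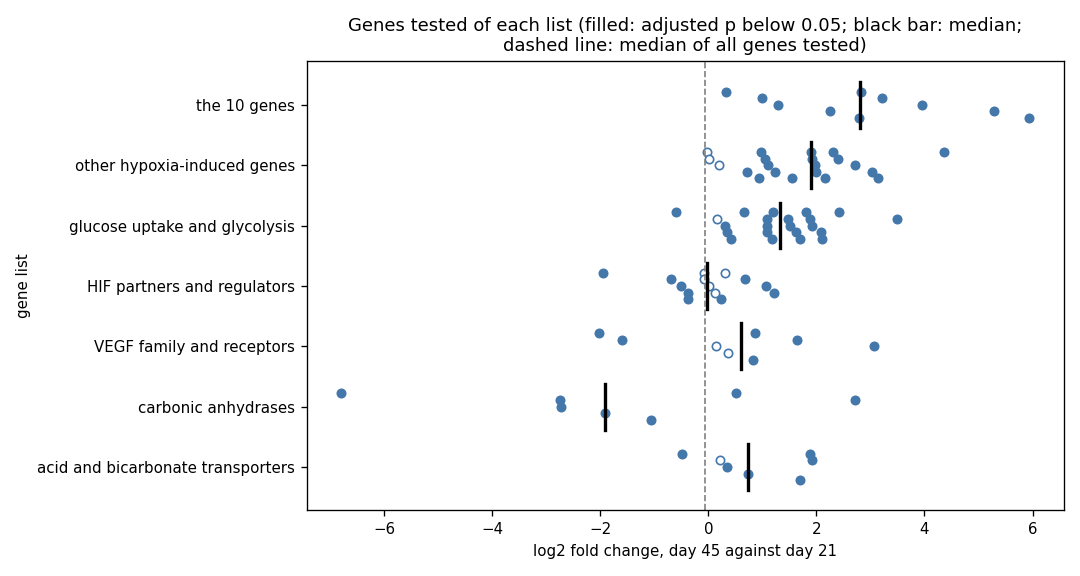
Log2 fold change from day 21 to day 45 (horizontal axis) of every tested gene of 7 lists (rows), filled where the edgeR adjusted p was below 0.05, with a black bar at the list's median and a dashed line at the median of all genes (-0.05). The 10 genes (median 2.81), the other hypoxia-induced genes (1.89) and the glycolysis genes (1.33) lie mostly to the right, and the partners and regulators of the factors (-0.03) lie on both sides.

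Genes reported elsewhere as targets of EPAS1 in chondrocytes moved in both directions. Of 8 such genes 6 rose and 2 fell from day 21 to day 45, against 27.1% of all genes tested rising and 30.5% falling. COL10A1, the collagen of hypertrophic cartilage, rose by 7.30 ± 0.38, from 11.02 ± 2.50 to 1734 ± 891 CPM. The matrix protease MMP3 rose by 6.64 ± 0.43 from at most 0.198 CPM at day 21, and NOS2, an inducible nitric oxide synthase, by 3.86 ± 0.33. MMP9, another matrix protease, fell by 8.16 ± 0.50, from 175 ± 26.8 to 0.593 ± 0.787 CPM, with -9.45 without day 45 replicate 2. On log2(TPM + 1), which compresses low levels, the 4 values were 6.40, 3.33, 0.97 and -6.96.

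Markers of other cell types were measured beside these results. The changes given are from day 21 to day 45, over which 27.1% of all genes tested rose and 30.5% fell. Of 8 endothelial markers 3 were tested: CDH5 was at 0 in all libraries, PECAM1, EMCN, VWF and CLDN5 were each at most 0.314 CPM, TEK and TIE1 rose by 2.15 ± 0.49 and 2.74 ± 0.27 to 0.908 and 10.98 CPM, and ERG, which is also made by chondrocytes, fell by 0.85 ± 0.11. The sum of the 8 lay between 239.6 and 295 CPM at day 21 and between 143 and 188 CPM at day 45, nearly all from ERG. Of 6 blood markers only CD68, a lysosomal protein, was tested, rising by 5.64 ± 0.26 to 53.3 ± 7.86 CPM, and PTPRC, HBB, HBG1, HBG2 and CD14 were each at most 0.314 CPM. Of 4 adipocyte markers 2 were tested: PLIN1 rose by 2.80 ± 0.57 to 0.493 CPM, and the other, 1 of FABP4 and LEP, was not called. ADIPOQ was at 0 in all libraries, and the sum of the 4 reached at most 1.85 CPM. Of 6 smooth muscle and pericyte markers 3 rose, CSPG4, DES and RGS5, and 1 fell. The 6 summed to 2065 to 2616 CPM at day 21 and 6688 to 9099 at day 45, of which CSPG4, a proteoglycan also made by chondrocytes, held 2285 ± 222 and 8278 ± 1021 CPM, and DES, of muscle, rose by 2.68 ± 0.25 to 12.97 CPM. MYH11 fell by 1.10 ± 0.39, a call lost without day 21 replicate 3 or day 45 replicate 1 or 5 (adjusted p = 0.0979, 0.0506 and 0.0516). The pluripotent markers POU5F1, NANOG, LIN28A and SOX2 were each at most 0.556 CPM in all libraries and not tested, and DPPA4 fell by 4.61 ± 0.27.

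Most cartilage markers and stress-responsive genes also rose over the whole course, with steps that differed between the lists. Of the 10 cartilage markers 9 rose and 1 fell (-0.91) from day 21 to day 45, and those rising included COMP by 4.96 ± 0.30, ACAN by 3.61 ± 0.30, MATN3 by 2.71 ± 0.19 and SNORC by 2.6 ± 0.18. All 10 rose by day 30 (median 2.03), and 3 rose and 2 fell from day 30 to day 45 (median 0.145). Among all genes tested, 27.2% and 27.6% rose in these intervals, and 27.1% rose over the whole course. The immediate early genes summed to between 169 and 179.6 CPM at day 21 and between 517 and 696 CPM at day 45, and 6 of the 8 rose over the course, including DUSP1 by 2.69 ± 0.14, FOS by 2.79 ± 0.16, JUNB by 2.14 ± 0.13 and JUN by 1.62 ± 0.11. By day 30, 5 of the 8 rose and 1 fell (median 0.70), and all 8 rose from day 30 to day 45 (median 1.25). The part of either in the rise of the 10 genes was not tested.

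The genes whose course over the 14 libraries was most like that of each member were found by the root mean square difference of centred log2 CPM among 9206 genes. BNIP3 was nearest to both EGLN3 (0.25) and VEGFA (0.27), followed by DDIT4 for EGLN3 (0.31) and EGLN3 itself for VEGFA (0.31). NDRG1 was nearest to PDGFB and MAFF (0.22 each), EPAS1 to SLC39A14 (0.25) and KLF9 (0.26), and CA12 to PID1 (0.26) and BMP6 (0.30). The nearest to CA9 were FGF11 (0.41) and CHAC1 (0.42), to ADM FGFBP2 and IHH (0.62 each), and to NDUFA4L2 FGFBP2 (0.69) and ZNF385B (0.74). HIF1A had ADAM12 (0.11) and UFL1 (0.12) and EGLN1 had FBXW8 (0.08) and NNT-AS1 (0.11). PDGFB, the nearest to NDRG1, had 5.02 ± 0.41, 8.05 ± 1.09 and 29.3 ± 9.74 CPM at the 3 days, and SLC39A14, the nearest to EPAS1, 71.0 ± 2.64, 196 ± 56.5 and 701 ± 127 CPM. The values share libraries, depth and scaling, and are a description with no test.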

How the data were processed

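Whole cartilage pellets were sequenced in 14 libraries. The submitters' processing notes name STAR 2.4.2a, RSEM 1.2.25 and the GRCh38 build, and per the labels' protocols the RNeasy micro kit served for extraction and the TruSeq RNA Library Prep Kit v2, which does not mark strand, for sequencing. No annotation release is named (not given in the sources used here). Per the file headers, the deposited tables give an expected count, a TPM and an effective length for each gene. Expected counts were rounded to whole numbers, CPM were computed from the deposited expected counts with TMM-scaled library sizes, and all log2 fold changes come from fits to the deposited counts, not from the authors.

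Symbols came from an Ensembl name table (60333 of 60587 identifiers matched) and coordinates from GENCODE 29 (58400 matched). Genes were kept by filterByExpr by day (17838), and the 14 libraries were fitted together, with 1 coefficient for each day, by the robust quasi-likelihood F-test of edgeR 4.0.16 (R 4.3.3), with Benjamini-Hochberg adjustment over all genes and a threshold of 0.05. The SE is the log2 fold change divided by the square root of F. In 4 ratios, log2(TPM + 1) values were compared by exact two-sided permutation tests adjusted over 12 tests. On simulated data, the fit was tested with known fold changes. No 2 replicates agreed within sampling noise (chi-square per degree of freedom at least 7.21).

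Alternatives were DESeq2 1.42.0 and its size factors, limma 3.58.1 on log2(TPM + 1) and log2(TPM + 0.1), other filters, non-robust fitting, a length offset, only the days compared, each library left out, day 30 replicates 3 to 5 left out, day 45 replicate 1 placed at day 30, and a replicate block. The text names the 10 members, up to 4 genes per list with the smallest adjusted p for day 45 against day 21, all genes of lists of up to 5, NDUFA4 and HIF3A, and the 2 genes most like each member with a mean of at least 10 CPM. ARNT, CA2, CA5B, CA13 and the untested marker genes fall outside this rule and were named after their values were seen. The members and the lists were chosen with earlier results of these data known. Promoter sequences are from RefSeq (GRCh38.p14).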

Additional observations from a re-analysis of the deposited data

Results flagged for a closer look

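In 42 groups of 4 or 5 libraries, the highest and lowest values of the 10 genes and the ratios were compared with their nearest neighbours, and 2 libraries stood far from the rest of their day. NDUFA4L2 in day 45 replicate 2 was at 272.4 CPM, where the other 4 libraries were between 184.8 and 202, and the gap was 0.808 of the whole range. CA9 in day 30 replicate 3 was at 209.7 CPM, where the others were between 149 and 166, with a gap of 0.721 of the range. Chance flags about 1 in 20 such groups, so among 42 groups about as many flags as were found here would arise by chance.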

How the results depend on the processing

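In the main fit, 54.4%, 56.3%, 57.7% and 52.7% of all genes tested were called in the 3 comparisons and the difference between intervals. The counts of the 10 genes called, in either direction, kept within 1.5 times of 8, 7, 10 and 8 under all alternatives run, other than those named next. With day 45 replicate 1 placed at day 30 it was 3 for day 45 against day 30, against 3036 higher and 3430 lower of 17838 genes. Without day 30 replicates 3 to 5 it was 2 for the difference between intervals, against 2848 higher and 2811 lower of 18509. On log2(TPM + 1), 7 of the 10 rose and 2 fell from day 21 to day 30, against 1788 rising and 9019 falling of 17838. Leaving out 1 library gave 8 to 8, 6 to 8, 8 to 10 and 6 to 9. Those fits tested 17684 to 18249 genes. Of these, 4345 to 4917, 4521 to 5023, 4373 to 4933 and 4004 to 4644 were called higher. Called lower were 4423 to 5021, 4387 to 5212, 4962 to 5527 and 4149 to 4979. With the replicate block the counts were 8, 7, 10 and 7. Of 17838 genes in that fit, 4356, 4659, 4551 and 4153 were called higher and 4516, 4860, 5177 and 4479 lower. Replicate numbers were not taken as pairing, since same-numbered libraries correlated at -0.251 to 0.116 and others at -0.224 to 0.231. A block of the ratios cannot reach the threshold. On log2(TPM + 1) and log2(TPM + 0.1), the direction turned for HIF1A (-0.55 and -0.56) and EGLN1 (-0.42 and -0.44) from day 21 to day 30, EGLN1 (-0.057 and -0.059) and NDRG2 (-0.41 in both) from day 21 to day 45, and HIF3A (-0.077 and -0.078) from day 21 to day 30, and on the first for CA12 in the difference between intervals (0.081). With day 45 replicate 1 placed at day 30, that difference turned for EPAS1 (-0.75) and NDRG1 (-0.22). The cause was not tested in these.

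Some ratio tests lost their call, which smaller groups make likelier since the smallest p rises. Leaving out 1 library gave 0.32 to 0.47 for EGLN3 to EGLN1 from day 30 to day 45 and -2.18 to -1.23 for CA9 to CA12 from day 21 to day 45. With day 45 replicate 1 placed at day 30, not called were EPAS1 to HIF1A (0.53 from day 30, 2.0 from day 21), EGLN3 to EGLN1 (0.33 and 2.37), CA9 to CA12 (-1.76 and -1.63) and NDUFA4L2 to NDUFA4 from day 21 (5.53). Without day 30 replicates 3 to 5, the changes from day 30 to day 45 were 0.87, 0.60 and -1.80 for the first 3 ratios. Depth limits ADM at day 21 most.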
